A study of Saccharomyces cerevisiae with 12 samples.

Results

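The genes described here encode the proteasome of baker's yeast, Saccharomyces cerevisiae. They were chosen by name: every gene with a probe set of its own whose symbol is PRE, PUP, RPN or RPT followed by a number, or is SCL1, with genes of chromosome I left out by the rule. The rule found 34 of the 5449 S. cerevisiae genes on the array. Of these, 14 encode the core particle (7 in the alpha ring and 7 in the beta ring) and 18 the regulatory particle (10 in its base and 8 in its lid). The remaining pair, RPN4 and RPN14, carry the same kind of name but are not subunits, and they are kept apart from the subunit counts below. Each of the 34 genes had 1 probe set, none of them marked as shared with related sequences, and all 34 passed the filter on dim genes.

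The proteasome degrades proteins that have been tagged with ubiquitin. The core particle is a barrel of stacked rings, with outer alpha rings that gate the entrance and inner beta rings that hold the peptidase sites. The regulatory particle caps the barrel: its base contains the ring of Rpt ATPases that unfold substrates and the receptors that bind ubiquitin, and its lid contains Rpn11, which removes the ubiquitin chain. In budding yeast the transcription factor Rpn4 activates most subunit genes through a shared promoter element and is itself a short-lived proteasome substrate.

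Transcript levels were read from 12 one-colour Affymetrix arrays. They held RNA of 8 homozygote strains taken from an evolved strain (n = 8, 1 array for each strain), of the evolved strain itself (n = 2 arrays) and of its parental strain (n = 2 arrays). All cultures shared the same growth: YPX, a rich medium with 4% xylose as the sugar, inoculated to an OD660 of 0.1, kept at 35 °C and 200 rpm and collected at 25 h. The series' text names the contrast of the homozygotes with the parental strain as its main question, in a study of improved xylose use. The labels give the strains by these names only, with no genotype or allele, and do not say how the homozygotes were made. A homozygote replicate is therefore a different strain, whereas parental and evolved arrays carry the label of biological repeats of 1 strain. Nothing in the labels says that those came from separate cultures, so p-values measure the spread between these samples, which may in part be technical.

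Proteasome transcripts were bright in every culture. Leaving out RPN14, the members gave signals between 809 and 4113 intensity units on every array, against a background between 18.7 and 19.6. RPN14 was dimmer, at 199 to 300 units. The organism was checked with 22 probe sets for proteasome genes of the fission yeast S. pombe, whose mean signals had a median of 10.1 and a highest value of 51.9 units. Of these probe sets, 4 were above background on 2 or more arrays. Of 20 marker genes for mating type, haploidy and sporulation, all except MF(ALPHA)1 were above background on all 12 arrays. HO was barely above it, at 20.1 to 28.6 units in homozygotes. SAG1 was the brightest, at 5696 to 6746 units in homozygotes, 6006 to 6038 in evolved and 5717 to 6207 in parental cultures. The alpha-specific markers MF(ALPHA)2 and STE3 were dim, at 29.8 to 37.8 and 39.5 to 62.1 units in homozygotes. No cell type is read from these markers. The 16 ribosomal RNA probe sets averaged 11.57 to 11.90 (log2) in homozygotes and 11.59 to 11.65 in evolved cultures, against 12.01 to 12.04 in parental cultures, and the part of this difference in the results below was not tested.

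The parental arrays limit the precision of most comparisons. For 26 of the 34 members parental array 1 read higher than parental array 2, including 12 of 14 core genes, whereas over all genes it did so for 2755 of 5352. The median absolute log2 difference between the parental arrays was 0.14 over the members and 0.22 over all genes tested, and the evolved arrays differed by 0.06 over the members. It was largest for PRE8, at -0.47, and PRE7, at 0.40 (parental 1 minus parental 2). For 22 of 34 members (64.7%) the parental arrays differed from each other by more than the homozygote mean differed from the parental mean, against 55.3% of all genes.

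In homozygotes against parental cultures, proteasome transcripts changed little and not in 1 direction. RPN12, encoding a lid subunit, rose by a log2 of 0.48 (1.40-fold), and PRE5 of the alpha ring rose by 0.26, while PRE10 of the alpha ring and PRE1 and PRE2 of the beta ring fell by 0.21, 0.20 and 0.17. These 5 of 34 genes passed limma's moderated test at an adjusted p of 0.05, 2 higher and 3 lower. Among all genes tested 31.2% passed it, 13.2% higher and 18.0% lower, so the share of called proteasome genes was below the background share. The mix of directions depended on the scaling. With each array centred on its median gene, 2 core and 2 regulatory particle genes were called higher and 0 lower. Among all genes that setting called 839 higher and 834 lower. With quantile normalization, 1 core and 1 regulatory particle gene were called higher, and 4 core and 0 regulatory particle genes lower. Among all genes quantile normalization called 751 higher and 816 lower. Since RNA came from whole cultures, a change in all cells and a change in the share of cells that express a gene cannot be told apart. The median absolute log2 change was 0.07 over the members and 0.19 over all genes. The median signed change over the 32 subunits was 0.003, against -0.04 over all genes tested. Group ranges were apart for 4 members that were higher (RPN12, PRE5, RPN6 and RPN8) and 2 that were lower (PRE1 and PRE2). Over all genes the ranges were apart for 12.5% in the higher and 18.7% in the lower direction.

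**Figure D1:**
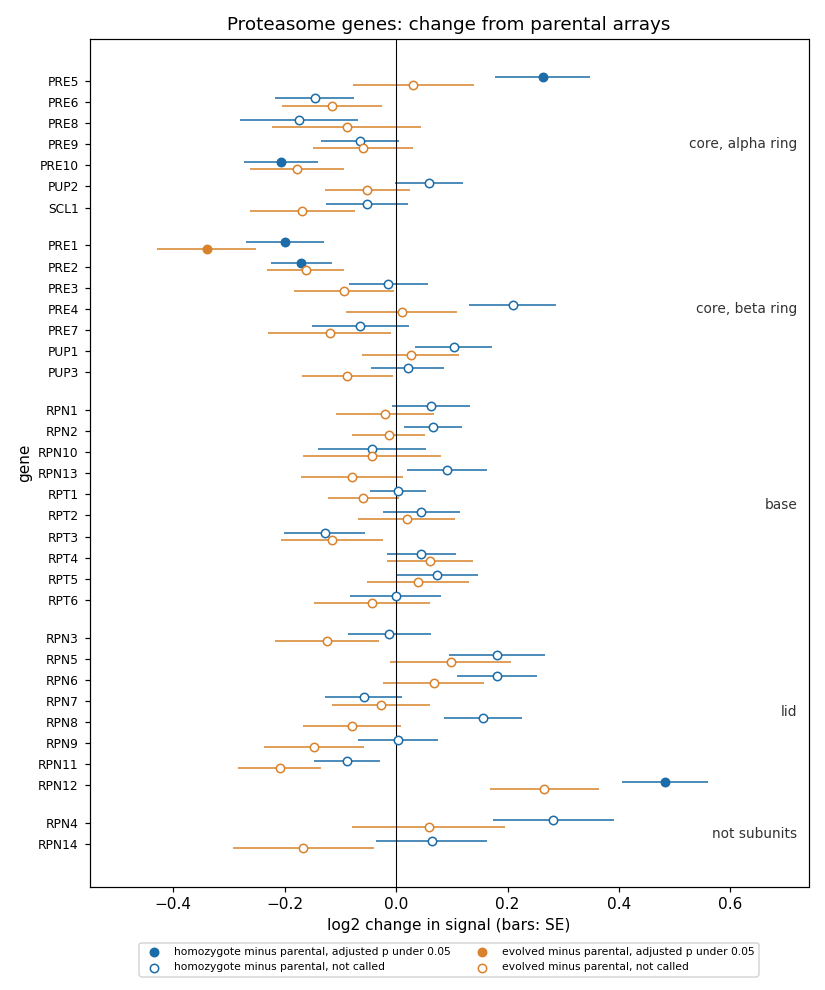
Log2 change in signal from the parental arrays for the 34 genes (rows, grouped by role), with homozygotes in blue and evolved cultures in orange, bars showing SEs from limma, and filled points marking an adjusted p under 0.05. Homozygote points are filled for RPN12 and PRE5 above 0 and for PRE10, PRE1 and PRE2 below 0, and the only filled evolved point is PRE1.

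The plot of changes from the parental arrays shows most genes close to 0, with RPN12 far to the right of the other members. The alpha ring and the beta ring each hold genes on both sides of 0.

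The alpha ring contained both a called rise and a called fall. PRE5, an alpha subunit, gave a lowest, median and highest signal of 1421, 1589 and 1861 units in homozygotes, with 1335 and 1373 in evolved and 1392 and 1261 in parental cultures. Every homozygote was above both parental and both evolved arrays. Its change over parental was 0.26 ± 0.09 (log2, SE; limma adjusted p = 0.0329). Without parental array 2 it was 0.19 (adjusted p = 0.202), and the call was also lost without homozygote 4, 5 or 7.

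PRE10, also of the alpha ring, gave 2205, 2372 and 2522 units as its lowest, median and highest homozygote signals, with 2388 and 2451 in evolved and 2998 and 2499 in parental cultures. The homozygote range reached past the lower parental array, so the groups overlapped. The change was -0.21 ± 0.07 (limma adjusted p = 0.032), but without parental array 1 it was -0.07 (adjusted p = 0.463). The other 5 alpha genes were not called. SCL1 differed by -0.05, PRE9, the alpha subunit yeast can lack, by -0.06, PRE6 by -0.15, PRE8 by -0.17 and PUP2 by 0.06. The parental arrays read 1266 and 1754 units for PRE8, so that its change was -0.41 (adjusted p = 0.0124) without parental array 1 and 0.06 (adjusted p = 0.69) without parental array 2.

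The beta ring contains the peptidase sites: PRE3 carries the caspase-like, PUP1 the trypsin-like and PRE2 the chymotrypsin-like one. PRE2 gave 2635, 2837 and 2989 units as its lowest, median and highest homozygote signals, 2813 and 2816 in evolved and 3301 and 3006 in parental cultures. Its homozygote range lay just below the lower parental array. The change was -0.17 ± 0.06 (limma adjusted p = 0.0326), and without parental array 1 it was -0.10 (adjusted p = 0.274).

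The other catalytic genes did not pass the test. PUP1 gave 1666, 1842 and 1961 units in homozygotes, 1694 and 1768 in evolved and 1740 and 1660 in parental cultures, a log2 change of 0.10 ± 0.07 for homozygotes (limma adjusted p = 0.272). PRE3 gave 2260, 2446 and 2608 units in homozygotes, 2269 and 2346 in evolved and 2726 and 2224 in parental cultures, a change of -0.01 ± 0.07 (limma adjusted p = 0.901). For both genes the groups overlapped, and the parental arrays of PRE3 lay on either side of the whole homozygote range.

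Of the 4 beta genes without a peptidase site of their own, PRE1 was called lower in homozygotes. Its lowest, median and highest homozygote signals were 1217, 1359 and 1483 units, with 1220 and 1234 in evolved and 1599 and 1508 in parental cultures. All homozygotes and both evolved arrays were below both parental arrays. The homozygote change was -0.20 ± 0.07 (limma adjusted p = 0.045), close to the threshold, and it was no longer called in 13 of 23 alternative settings, among them without parental array 1 (-0.16, adjusted p = 0.214) and without parental array 2 (-0.24, adjusted p = 0.0558).

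PRE4 gave 3377, 3685 and 4089 units in homozygotes, 3139 and 3291 in evolved and 3568 and 2856 in parental cultures, so that parental array 1 fell inside the homozygote range. Its change was 0.21 ± 0.08 (limma adjusted p = 0.057), and PRE4 was called higher with each array centred on its median gene. The change was 0.37 (adjusted p = 0.00606) without parental array 1 and 0.05 (adjusted p = 0.688) without parental array 2. PRE7 differed by -0.06 and PUP3 by 0.02, and neither was called. The falls of PRE10, PRE1 and PRE2 depended on the scaling. With each array centred on its median gene, they were -0.17, -0.16 and -0.13 with limma adjusted p-values of 0.0543, 0.116 and 0.0695. With quantile normalization the falls of PRE10, PRE1 and PRE2 stayed called.

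In the base of the regulatory particle none of the 10 genes was called by limma, and 0 of 10 had an unadjusted p under 0.05, against 2283 of 5352 genes, with changes between -0.13 and 0.09 and a median of 0.05. The 6 Rpt ATPases differed by 0.003 (RPT1), 0.04 (RPT2), -0.13 (RPT3), 0.05 (RPT4), 0.07 (RPT5) and -0.001 (RPT6) on the log2 scale. RPT6 gave 1680, 1984 and 2204 units in homozygotes, 1857 and 1942 in evolved and 1906 and 2009 in parental cultures, so that the homozygotes lay on both sides of the other arrays. RPN1 and RPN2, the large scaffold subunits of the base, differed by 0.06 and 0.07. The ubiquitin receptors RPN10 and RPN13 differed by -0.04 and 0.09. Leaving out parental array 2 brought RPT3 to -0.25 (adjusted p = 0.0287), and this was the only base gene called in any setting that left out an array.

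The lid contained RPN12, the member with the largest change. RPN12 gave 1876, 2069 and 2249 units as its lowest, median and highest homozygote signals, with 1790 and 1735 units in evolved and 1606 and 1338 units in parental cultures. The 3 groups were apart, homozygotes above evolved and evolved above parental cultures. Mean signals were 2051 ± 114 in homozygotes (SD, n = 8), 1763 ± 38.8 in evolved (SD, n = 2) and 1472 ± 190 in parental cultures (SD, n = 2). Homozygotes exceeded parental cultures by 0.48 ± 0.08 (log2, SE; limma adjusted p = 0.000614). The call held in all 23 alternative settings, and leaving out single arrays gave changes between 0.35 and 0.61.

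The other 7 lid genes were not called. RPN6 gave 910, 942 and 1038 units in homozygotes, 895 and 862 in evolved and 809 and 868 in parental cultures, with every homozygote above both parental arrays and a change of 0.18 ± 0.07 (limma adjusted p = 0.0706). Among the alternative settings RPN6 was called higher only with each array centred on its median gene. RPN8, which pairs with Rpn11 in the lid, gave 2204, 2384 and 2537 units in homozygotes, 2121 and 1924 in evolved and 2196 and 2072 in parental cultures, a change of 0.16 ± 0.07 (adjusted p = 0.104). RPN5 gave 1742, 2070 and 2349 units in homozygotes, 1960 and 1938 in evolved and 1838 and 1804 in parental cultures, a change of 0.18 ± 0.09 (adjusted p = 0.124). Homozygotes 1, 2 and 4 to 8 were above both parental arrays for RPN5, while homozygote 3 was below them. Without homozygote 3, RPN5 was called higher (limma adjusted p = 0.0321). RPN11, the deubiquitinase, gave 1392, 1426 and 1481 units in homozygotes, 1289 and 1342 in evolved and 1581 and 1462 in parental cultures, a change of -0.09 ± 0.06 (adjusted p = 0.275). RPN3, RPN7 and RPN9 differed by -0.01, -0.06 and 0.004. The lid's median change was 0.08.

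**Figure D2:**
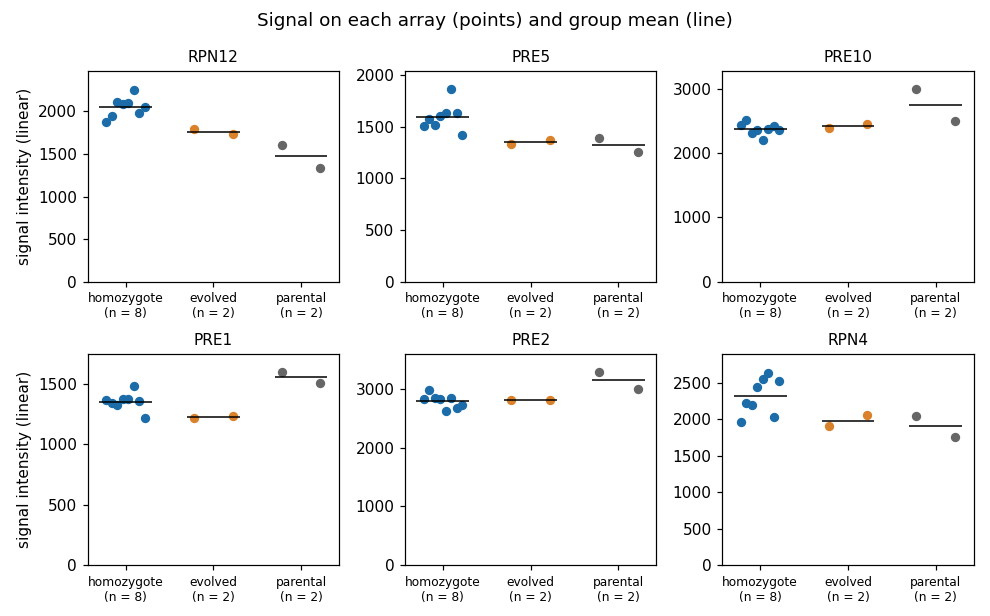
Signal intensity on a linear axis from 0 for 6 genes, with 1 point for each array and a line at the group mean, for homozygotes, evolved and parental cultures. RPN12 is ordered homozygote, evolved, parental with no overlap, PRE1 has homozygotes and evolved arrays below both parental arrays, and the 2 parental points stand well apart in PRE10.

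The plot of signals on each array shows how narrow the homozygotes are beside the parental pair for PRE10, and that PRE1 is lowest in the evolved cultures and homozygote 8.

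RPN4, the activator of the subunit genes, was higher on average in homozygotes but missed the threshold. It gave 1961, 2329 and 2632 units as its lowest, median and highest homozygote signals, 1898 and 2054 in evolved and 2046 and 1757 in parental cultures. Homozygotes 1 and 7 lay below parental array 1, and the other 6 were above both parental arrays. The change was 0.28 ± 0.11 (limma adjusted p = 0.0621), and it was called without homozygote 1, without homozygote 7 and with median centring (0.32, adjusted p = 0.0456). RPN14, a chaperone of base assembly, differed by 0.06 ± 0.10 (adjusted p = 0.653).

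The core and the regulatory particle were set side by side on each array through the median change of their genes from the parental mean. No p is given for these medians, because the members are a chosen list. In homozygotes the median of the core minus that of the regulatory particle was between -0.13 and -0.05 on 7 arrays, and homozygote 6 was the exception at 0.002. The difference averaged -0.09 over homozygotes and was -0.08 and -0.06 on the evolved arrays, against 0.02 and -0.02 on the parental arrays. The parental values mirror each other by construction, since their own mean is the baseline, so they show only how far the parental arrays differ. By gene, 5 of 14 core genes and 12 of 18 regulatory particle genes had a change above 0 in homozygotes, against 2372 of 5352 among all genes. The separation depended on which parental array served as baseline: it was -0.07 in homozygotes and -0.002 in evolved cultures without parental array 1, and -0.14 in both without parental array 2.

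**Figure D3:**
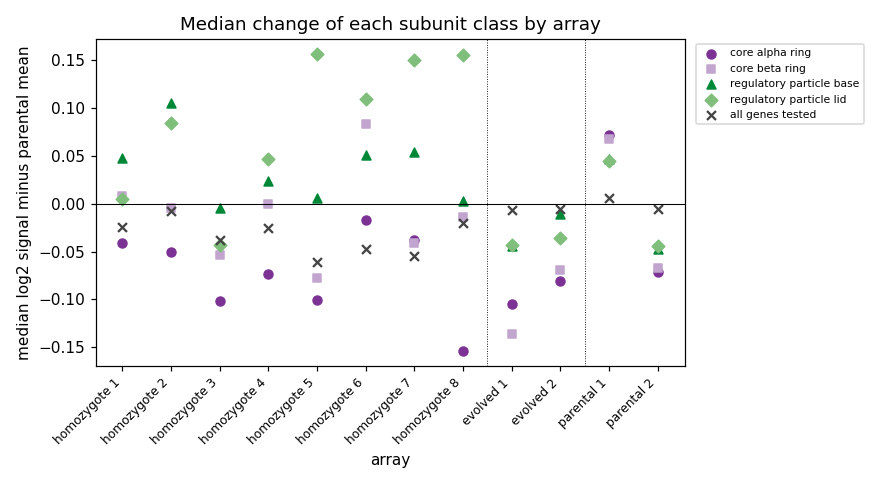
Median log2 change from the parental mean for the alpha ring, beta ring, base, lid and all genes tested (symbols) on each of the 12 arrays. Lid medians reach 0.16, 0.15 and 0.15 in homozygotes 5, 7 and 8, where the alpha ring lies below 0, and on the parental arrays all 4 classes lie above 0 in parental 1 and below 0 in parental 2.

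In the plot of class medians the alpha ring was under 0 on all homozygote and evolved arrays. The beta ring was not low throughout, with homozygote medians between -0.08 and 0.08, and -0.14 and -0.07 on the evolved arrays. The base lay between -0.005 and 0.11 in homozygotes and at -0.04 and -0.01 on the evolved arrays. In homozygotes the median change of the core, -0.06, was close to the -0.04 of all genes tested. The lid median was highest in homozygote 5, at 0.16, and lowest in homozygote 3, at -0.04. It was -0.04 on both evolved arrays. On the parental arrays, whose values mirror each other, the 4 classes lay 0.04 to 0.07 above 0 in parental 1.

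In evolved against parental cultures, 1 of the 34 genes was called. PRE1 was lower by 0.34 ± 0.09 (log2, SE; limma adjusted p = 0.0312), with 1220 and 1234 units in evolved cultures against 1599 and 1508 in parental ones. Among all genes 8.41% were called, 3.20% higher and 5.21% lower. The PRE1 call was lost in 7 of 24 settings, and without evolved array 1, evolved array 2 or parental array 1 its adjusted p was 0.202, 0.153 and 0.0879. The next largest differences, none of them called, were RPN12 at 0.27 (adjusted p = 0.109), RPN11 at -0.21 (adjusted p = 0.1) and PRE10 at -0.18 (adjusted p = 0.221). An unadjusted p under 0.05 was found for 4 of 34 members (PRE1, PRE2, RPN11 and RPN12) and 1281 of 5352 genes. The ranges were apart for 3 members that were higher (RPN12, RPN5 and RPT4) and 9 that were lower, against 23.8% and 28.0% of all genes. Median differences were -0.09 for the core, -0.04 for the regulatory particle and -0.01 for all genes tested.

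Homozygotes were also set against the evolved cultures directly. By limma 0 of 34 members were called, as were 0% of all genes, and an unadjusted p under 0.05 was found for 6 members and 929 of 5352 genes. The ranges of 10 members were apart with homozygotes higher (RPN12, RPN8, RPN6, RPN9, RPN11, RPN2, RPN13, PRE5, PRE4 and RPN14) and of 0 with homozygotes lower, against 9.25% and 12.8% of all genes. Of the 10 members, 5 belong to the lid. In all, 25 of 34 members had a difference above 0, against 2522 of 5352 genes, and the medians were 0.08 for members and -0.01 for all genes. The largest difference was that of RPN8, at 0.23 (adjusted p = 0.163), and RPN12 differed by 0.22 (adjusted p = 0.209). When arrays were weighted by group, which gave evolved arrays a weight of 3.69, homozygotes 0.98 and parental arrays 0.29, 4 core and 5 regulatory particle genes were called higher, among 669 higher and 880 lower genes in all. They were PRE5, PUP2, PRE1 and PRE4 in the core and RPN13, RPN11, RPN12, RPN8 and RPN9 in the regulatory particle, and RPN4 and RPN14 were called as well. The weight of the evolved arrays rests on 2 arrays that differed by a median of 0.06 over all genes.

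Among the homozygotes themselves, the spread of proteasome genes was small. The SD over the 8 strains had a median of 0.08 (log2) for members and 0.12 for all genes, and ran from 0.03 for RPT1 to 0.16 for RPN4. All members except RPN14 were bright, whereas all genes tested include dim ones. The members were not set against genes of like brightness for this spread. The test of this spread against that of the duplicates called 0 of 34 members, with 0 at an unadjusted p under 0.05, and 0% of all genes. Its reference pools the parental pair, with a median difference of 0.22 over all genes, and the evolved pair, with 0.06. With so few duplicates, and the parental pair so wide, the test cannot show that strains vary no more than repeats. Homozygote 6 gave the highest of the 8 signals for 14 members, 8 of them in the core, and the lowest for 2, whereas it was highest for 18.6% and lowest for 21.7% of all genes. Homozygote 8 was the lowest for 11 members and homozygote 3 for 8, against 16.9% and 13.2% of all genes. Homozygote 2 was highest for 7 members and lowest for 0, against 14.7% and 7.36% of all genes. Homozygote 4 was neither for any member, and it was highest for 8.05% and lowest for 5.79% of all genes.

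**Figure D4:**
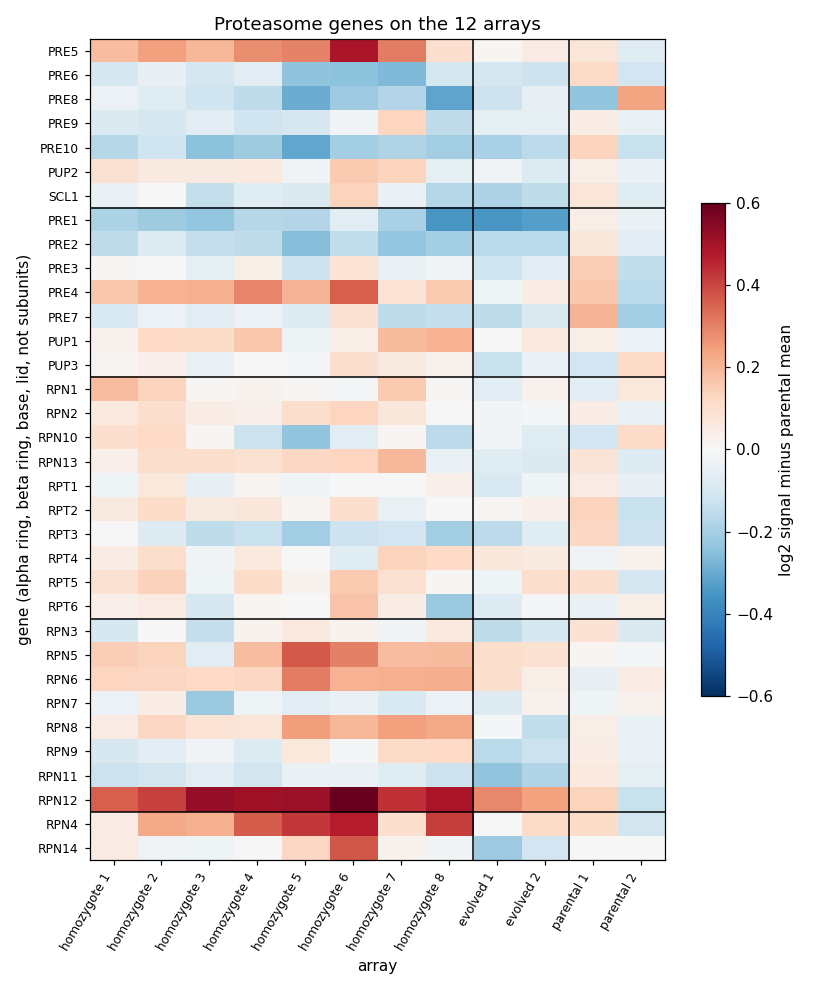
Log2 signal minus the parental mean (colour, red above and blue below 0) for the 34 genes (rows, in the order alpha ring, beta ring, base, lid, not subunits) on the 12 arrays (columns). RPN12 is red on all homozygote and evolved arrays, PRE1 is bluest on homozygote 8 and both evolved arrays, and most base rows are pale, with deeper blue in single homozygotes for RPN10, RPT3 and RPT6.

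The map of all members on all arrays shows RPN12, PRE5 and PRE4 as rows that are red across the homozygotes, with their deepest colour in homozygote 6, and RPN4 as a row that varies between homozygotes.

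Genes that act beside the proteasome were counted from lists written from textbook knowledge. Of 18 assembly and associated factors tested, 3 were called higher and 1 lower in homozygotes against parental cultures, where 13.2% of all genes were called higher and 18.0% lower. SEM1, a small subunit that also belongs to the lid but is not matched by the naming rule, averaged 1171 ± 107 units in homozygotes (SD, n = 8) and 888 ± 99.0 in parental cultures (SD, n = 2), a rise of 0.40 ± 0.10 (limma adjusted p = 0.00899) that was 0.29 (adjusted p = 0.098) without parental array 2. HSM3, a chaperone of base assembly, rose by 0.41 (adjusted p = 0.0328), and this was 0.30 (adjusted p = 0.232) without parental array 1. UBP6, a deubiquitinase bound to the base, rose by 0.22 (adjusted p = 0.0491) but lost its call in 15 of 23 settings. ADD66, a chaperone of alpha ring assembly, fell by 0.40 (adjusted p = 0.00405), with 472 ± 34.1 units in homozygotes and 621 ± 13.7 in parental cultures, and lost its call only with array weights. UMP1, which assists maturation of the core, differed by 0.06 (adjusted p = 0.518).

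Of 33 genes for ubiquitin and substrate delivery, 5 were called higher and 4 lower in homozygotes, shares near the 13.2% and 18.0% of all genes. CDC48, the ATPase that extracts ubiquitin-tagged proteins from complexes and membranes, averaged 2305 ± 56.7 units in homozygotes (SD, n = 8) and 1878 ± 27.2 in parental cultures (SD, n = 2), a rise of 0.29 ± 0.05 (limma adjusted p = 0.000797) called in all 23 settings. The other 4 that rose, named after their values were seen, were RPL40B (0.29) and UBA1 (0.24), which encode a ubiquitin fusion and the ubiquitin-activating enzyme, DOA1 (0.23), a Cdc48 partner, and CDC34 (0.19), a ubiquitin-conjugating enzyme. NPL4, a cofactor of Cdc48, fell by 0.43 (adjusted p = 0.00754). SAN1, a nuclear ubiquitin ligase for misfolded proteins, fell by 0.62 (adjusted p = 0.00204), with 123 ± 14.4 units in homozygotes and 188 ± 5.50 in parental cultures. NPL4 and SAN1 lost their calls only with array weights. The polyubiquitin gene UBI4 differed by 0.07 (adjusted p = 0.547), with 0.27 (adjusted p = 0.00896) without parental array 1 and -0.14 without parental array 2.

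Of 7 regulators of RPN4 transcription and turnover, 0 were higher and 2 lower by limma, where 18.0% of all genes were called lower. Both belong to the ubiquitin list as well: UBR2, the ligase that tags Rpn4 for degradation, fell by 0.37 ± 0.12 (adjusted p = 0.0352), and its partner MUB1 fell by 0.38 ± 0.12 (adjusted p = 0.0255). Both calls were lost without parental array 1, where the changes were -0.29 and -0.27, and with quantile normalization and array weights. Over the 23 alternative settings UBR2 lost its call in 6 and MUB1 in 3. In evolved against parental cultures 0 genes of these 3 lists were called, with 2, 5 and 0 at an unadjusted p under 0.05 in the assembly, ubiquitin and RPN4 regulator lists.

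The 34 genes are spread over 13 chromosomes, with 6 each on IV and XV and 5 on VII. PRE4 and RPN12 lie near each other toward the right end of chromosome VI, as their systematic names (YFR050C and YFR052W) show. Their neighbours were looked at after these values had been seen. In homozygotes against parental cultures, BNA6 rose by 0.86, RMD8 by 0.56, KGD4 by 0.26 and IRC7 by 0.68, all called, whereas RET2, which lies between PRE4 and RPN12, differed by 0.06 and HXK1 by -0.003, neither called. In evolved against parental cultures BNA6, RMD8 and IRC7 were called as well, with rises of 0.78, 0.36 and 1.06, while RPN12 and PRE4 were not. On the whole right arm the median change over 54 genes was 0.04.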

How the data were processed

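Each array's deposited intensity was used as it stands, 1 linear value for each probe set. MAS5 is the tool named, without version or role, per the submitters' processing notes. Biotin-labelled cRNA came from 100 ng of total RNA, per the labels' protocols. How arrays were scaled and the genome build of the array are not given in the sources used here. Trimmed mean intensities, leaving out 2% at each end, lay between 448.9 and 454.9 units, and the number of arrays limits the precision.

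Intensities were log2 transformed (values under 1 set to 1) and were used without further normalization. Genes were assigned from the platform annotation and updated through a gene table of assembly R64, with 1 gene-specific probe set kept for each gene. The 90th percentile of the S. pombe probe sets set the background of each array, and the 5352 genes above it on at least 2 arrays were tested. The fits used limma 3.58.1 (R 4.3.3), with 1 mean for each group over all 12 arrays, a trend in the variance prior and Benjamini-Hochberg adjustment over all genes tested at 0.05 (two-sided), and a gene past this threshold is named as called. Spread among homozygotes was tested by an F test against the squeezed variance of the duplicates. Because the groups share 1 estimate of the spread, which comes mostly from homozygotes, while the parental arrays differed most, SEs and p-values against parental cultures understate the uncertainty. The code was tested on simulated data.

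The members and lists were chosen with earlier results of these data known. Signals (lowest, median and highest of the homozygotes, and each evolved and parental array) are given for the 8 largest homozygote and 4 largest evolved changes among members, for RPN4, PRE2, PUP1, PRE3 and RPT6, and for some others (PRE8 parental arrays and RPN8) chosen after their values were seen. In each neighbouring list the up to 4 called genes with the largest change were named, and UMP1, UBI4 and CDC48 always; the other 4 called genes of the ubiquitin list were named after their values were seen. The list names POC1, ADC17 and DOA10 are other names of PBA1, TMA17 and SSM4 and were counted once. Alternatives covered scaling, filters, pseudocount, weights, the groups in the fit, probe set choice and leaving out each array.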

Additional observations from a re-analysis of the deposited data

Results flagged for a closer look

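The RPN14 signal of homozygote 6 was 300.1 units, whereas the other 7 homozygotes lay between 228 and 252. Its gap to the next array, divided by the range of the 8, was above Dixon's critical value of 0.526. This was 1 of 34 members, and 5.61% of all genes tested had such an array among the homozygotes, where chance gives about 1 in 20.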

How the results depend on the processing

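RPN12 kept its direction and its call in all 23 alternatives for homozygotes against parental cultures. Quantile normalization there called 1 core gene higher and 4 lower. In that comparison, core genes called higher were 1 as reported, 2 with median centring, 0 with array weights and 0 to 2 leaving out single arrays. Core genes called lower were 3 as reported, 0 with median centring, 0 with array weights, 1 without homozygotes 5 and 6 and 1 to 4 leaving out single arrays. Regulatory particle genes called higher were 1 as reported, 2 with median centring and 1 to 2 leaving out single arrays, and those called lower were 0, and 0 to 1 leaving out single arrays (RPT3, without parental array 2). With array weights, all genes called higher were 151 in place of 708 and lower 174 in place of 961. In evolved against parental cultures the call of PRE1 was lost, leaving 0 core genes called lower, with median centring, array weights, only the 2 groups or the replicate block, and 0 to 3 were called leaving out single arrays. Regulatory particle calls there were 0 to 1 in each direction leaving out single arrays. All genes called higher there were 171 as reported, 74 with array weights, 20 with only the 2 groups and 45 to 403 leaving out single arrays, and lower 279 as reported, 110, 26 and 73 to 460. With the replicate block they were 55 higher and 99 lower, and no member was called. The labels do not say whether same-numbered parental and evolved arrays were paired. Differences between arrays 1 and 2 were nearly unrelated between these groups (r = -0.05 over 5352 genes), which cannot settle it. In homozygotes against evolved cultures array weights called 669 genes higher and 880 lower, with 4 core and 5 regulatory particle genes higher, only the 2 groups called 1 lower, and leaving out single arrays called 0 to 6 higher and 0 to 23 lower. Core minus regulatory particle was -0.0711 in evolved cultures, -0.0884 with quantile normalization and -0.143 to -0.0016 leaving out 1 or the other parental array. In homozygotes it was -0.0858, and -0.137 to -0.0662 leaving out 1 or the other parental array. For this difference no evolved or homozygote array was left out. No called value had a sign opposite to that of the value as reported. Between the fits without parental array 1 and without parental array 2, some signs were opposite. Among these, homozygotes against parental cultures gave -0.41 and 0.06 for PRE8, and 0.14 and -0.27 for PRE7. The causes of these changes were not tested. The depth of an array cannot be read from these values, but all members were well above background.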
